A study of Ovis aries with 20 samples.

Results

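The genes followed here through the development of the sheep trachea move water and sodium across cell membranes. They are the water channel genes AQP1, AQP3, AQP4 and AQP5, together with ATP1B1 and ATP1B3, which encode beta subunits of the sodium pump. They were chosen by name for their roles, and are 6 of the 24478 genes counted. The tissue was trachea of CF and WT sheep (Ovis aries), taken frozen at days 65, 80, 100, 120 and 147, the last being birth. Each of the 10 groups of genotype and age held 2 libraries of total RNA, 20 in all. CF stands for cystic fibrosis and WT for healthy donors. The sources used here do not give the CFTR alleles or how the CF animals were made. The 2 libraries of CF day 147 carry 1 sample identifier, as do the 2 libraries of WT day 100, and WT day 65 replicate 2 shares one with CF day 100 replicate 2. P-values therefore measure the spread between these libraries, which may in part be technical.

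Aquaporins are pores that let water follow an osmotic gradient through a cell membrane, and AQP3 also passes glycerol. In human and rodent airways AQP5 lies in the apical membrane of gland and surface cells, AQP3 in basal cells, AQP4 in the basolateral membrane of surface cells, and AQP1 mainly in the endothelium of small vessels. The sodium pump (Na,K-ATPase) carries sodium out of the cell and potassium in. Its alpha subunit binds the ions and splits ATP, and a beta subunit is needed for the enzyme to fold and to reach the membrane. Before birth the airway epithelium secretes chloride, and liquid follows into the lumen. Around birth the epithelium turns to absorbing sodium through ENaC at its apical side and the pump at its basolateral side.

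The sources used here do not name the genome build of the deposited positions. In them AQP1 lies on chromosome 4 from 65363138 to 65374815 on the minus strand and AQP3 on chromosome 2 from 37540127 to 37546508 on the plus strand. AQP4 lies on chromosome 23 from 30281057 to 30295657 on the plus strand. AQP5 lies on chromosome 3 from 135974463 to 135978295 on the minus strand, between AQP6 and AQP2, whose genes span 135962822 to 135968710 and 135989102 to 135997426. ATP1B1 lies on chromosome 12 from 34812765 to 34842001 on the plus strand and ATP1B3 on chromosome 1 from 244902124 to 244937358 on the minus strand. Values are counts summed over the exons of a gene, which add up to 804 bases for AQP1, 1696 for AQP3, 6457 for AQP4, 1387 for AQP5, 2564 for ATP1B1 and 1538 for ATP1B3. Of the 6 genes, ATP1B1 shared exon bases with another gene: 146 bases are also exon of NME7 on the minus strand. Whether counting used strand is not stated in the labels, so reads there cannot be assigned to either gene.

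Levels are given as CPM, a gene's count scaled to a fixed library total, with library totals adjusted by TMM. Libraries held 42372433 to 87651829 counts, and the lowest counts behind the 6 genes were 50 and 52 for AQP5 in the WT day 65 libraries and 56 for AQP1 in WT day 80 replicate 1. All 18 genes of a list of epithelial markers were detected in every library, with a summed level of 1450 to 7035 CPM, beside 4816 to 53475 CPM for 12 fibroblast genes. The tissue is labelled epithelial, but markers of other layers of the wall were thus abundant. In 4 libraries markers of other organs stood far above the rest. Summed thyroid markers reached 110517 CPM in WT day 80 replicate 2, and skeletal muscle markers 36026 CPM in CF day 80 replicate 1 and 1008 CPM in WT day 65 replicate 2. Liver markers reached 15422 CPM in CF day 65 replicate 2. Fits without these 4 libraries keep 1 library in each group of days 65 and 80. A call lost in such a fit cannot be told apart from the effect of fewer libraries. Libraries also differed in how much their levels leaned towards long genes, measured as a slope on log2 exon length. The slope was -0.2428 at its lowest, in WT day 147 replicate 2, and 0.2449 at its highest. CFTR RNA lay between 4.3 and 37.1 CPM in CF libraries and between 10.2 and 37.8 CPM in WT libraries, which overlap. They do not check the genotype, since the kind of mutation is not known here.

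AQP5 changed most of the 6 genes. In CF libraries it had 4.3 and 1.93 CPM at day 65, then 1.57 and 3.33 CPM at day 80, 4.41 and 3.78 CPM at day 100 and 25.1 and 9.69 CPM at day 120, ending with 61.7 and 71.3 CPM at birth. In WT libraries it had 0.634 and 1.04 CPM at day 65, then 4.23 and 2.26 CPM at day 80, 4.99 and 2.59 CPM at day 100 and 27.5 and 43.9 CPM at day 120, ending with 105 and 208 CPM at birth. Every library of day 120 lay above every library of the 3 earlier ages, and every library of birth above every library of day 120. Days 65, 80 and 100 overlapped. With both genotypes weighted equally, AQP5 averaged 69 ± 63.8 CPM at days 120 and 147, against 2.41 ± 1.4 CPM at days 65 and 80 (SD, n = 8 each). The fitted difference, a mean of log2 levels over the groups and so not the ratio of these averages, was 4.56 ± 0.33 (SE) on the log2 scale or 23.6-fold, with an adjusted p of 5.31e-06. The test, as for every adjusted p of single genes here, was edgeR's quasi-likelihood test, adjusted by Benjamini-Hochberg over all 20097 genes tested.

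Of the 6 genes, 3 (AQP5, AQP3 and AQP4) were higher at days 120 and 147 than at days 65 and 80 and none was lower, where 11.5% of all genes tested rose. The median over all genes tested was -0.02 on the log2 scale. In bulk tissue, fewer cells of a type and less RNA per cell cannot be told apart. Markers of airway secretory and gland cells moved in the same direction: 10 of the 14 tested were higher in late libraries and none lower, with a median log2 fold change of 3.69, and their summed level was 13897 to 94066 CPM at days 120 and 147 against 1287 to 23221 CPM at days 65 and 80. None of these markers was at 0 in all libraries of either period, though SCGB1A1, MUC5AC and MUC5B were at 0 in some early libraries and SCGB1A1 in some late ones. Their part in the rise of AQP5 was not tested. Epithelial markers changed less: 2 of 18 were higher, none lower, and the median log2 fold change was 0.46.

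**Figure D1:**
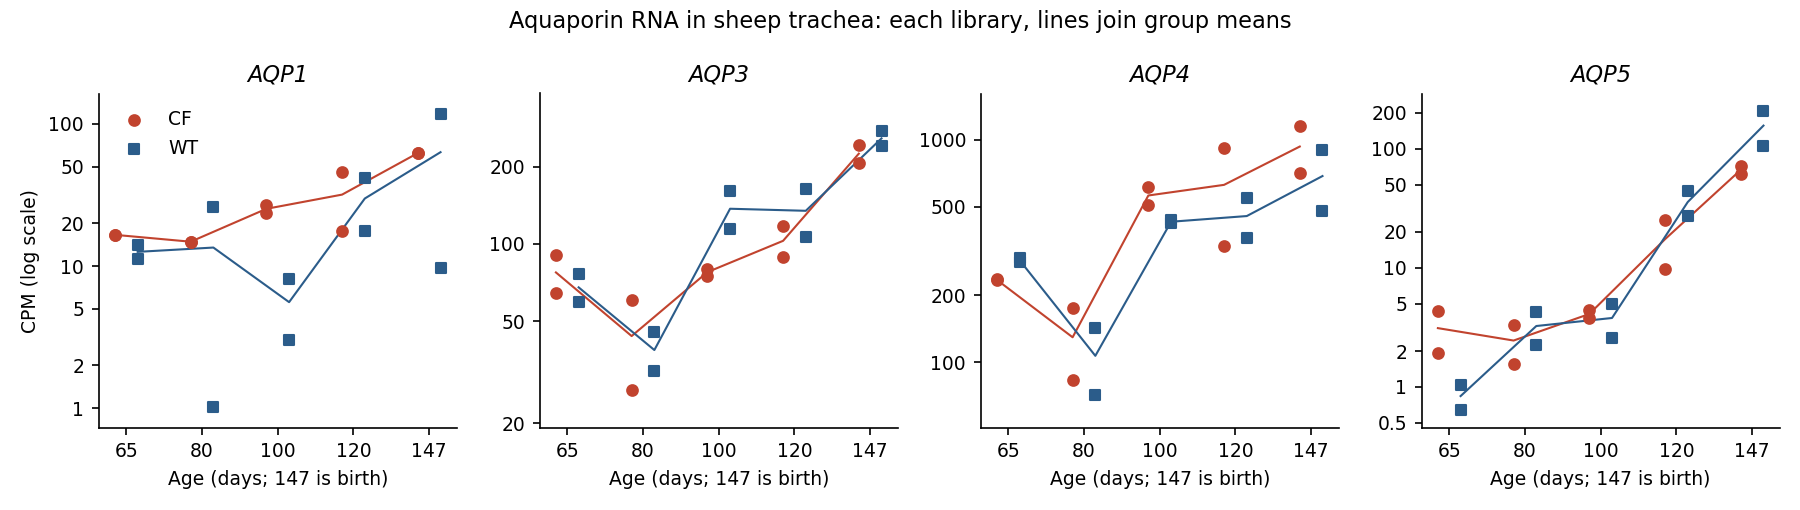
Level of 4 aquaporin genes (CPM, log axis, 1 panel a gene with its own range) against age, with CF libraries as red circles left of WT libraries as blue squares, and lines through the means of the 2 libraries of a group. AQP5 stays under 5 CPM to day 100 and reaches 61.7 to 208 CPM at birth, AQP3 and AQP4 are lowest at day 80, and AQP1 scatters widely in WT libraries.

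The called step of AQP5 came after day 100. WT libraries averaged 0.838 CPM at day 65, 3.24 CPM at day 80 and 3.79 CPM at day 100. Both WT libraries of day 65 lay below those of days 80 and 100. CF libraries averaged 3.12, 2.45 and 4.1 CPM at these ages, and there day 65 overlapped the later ages. Single steps within a genotype were not tested. From day 100 to day 120 AQP5 rose by 2.66 ± 0.43 on the log2 scale (adjusted p = 0.0407), in a step where 0.0945% of all genes rose. That call is near the threshold and was lost in 15 of the 20 fits that leave out 1 library, while the log2 fold change stayed between 2.21 and 2.93. From day 120 to birth the log2 fold change was 2.03 ± 0.42, with all 4 libraries of birth above all 4 of day 120, but the adjusted p of 0.0837 missed the threshold; by limma-voom the adjusted p was 0.0184. In that step 0.0498% of all genes rose, and by edgeR none of the 6 genes was called, with AQP3 and AQP5 at an unadjusted p under 0.05; DESeq2 called those 2 and limma-voom called AQP5. From day 65 to birth AQP5 rose by 5.98 ± 0.50 on the log2 scale (adjusted p = 2.25e-05).

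AQP3, the aquaglyceroporin of basal cells, was present at every age, with its lowest median at day 80. It had 90.5 and 64.3 CPM at day 65, then 26.9 and 60.6 CPM at day 80, 75.2 and 80 CPM at day 100 and 117 and 88.5 CPM at day 120, ending with 243 and 206 CPM at birth in CF libraries. In WT libraries it had 76.2 and 59.2 CPM at day 65, then 45.3 and 31.9 CPM at day 80, 114 and 160 CPM at day 100 and 163 and 106 CPM at day 120, ending with 275 and 240 CPM at birth. The 4 libraries of birth lay above all others, and days 100 and 120 overlapped. AQP3 averaged 180 ± 71.2 CPM at days 120 and 147, against 56.9 ± 21.5 CPM at days 65 and 80 (SD, n = 8 each), and rose by 1.62 ± 0.19 on the log2 scale (adjusted p = 6.29e-05).

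AQP4, a water channel of the basolateral membrane, had the highest CPM of the 4 aquaporins in every library, though its long exons gather more counts. In CF libraries it had 234 and 236 CPM at day 65, then 83.4 and 176 CPM at day 80, 617 and 509 CPM at day 100 and 333 and 924 CPM at day 120, ending with 1156 and 713 CPM at birth. In WT libraries it had 282 and 294 CPM at day 65, then 143 and 71.1 CPM at day 80, 436 and 422 CPM at day 100 and 547 and 363 CPM at day 120, ending with 898 and 479 CPM at birth. All libraries of day 80 lay below all of day 65, and those in turn below all of days 100, 120 and 147, which overlapped among themselves. AQP4 averaged 677 ± 296 CPM at days 120 and 147, against 190 ± 85.5 CPM at days 65 and 80 (SD, n = 8 each), and rose by 1.90 ± 0.27 on the log2 scale (adjusted p = 0.000276).

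AQP3 and AQP4 had a called step earlier in the series. From day 80 to day 100 AQP4 rose by 2.06 ± 0.38 on the log2 scale (adjusted p = 0.00919) and AQP3 by 1.33 ± 0.26 (adjusted p = 0.0112), and in both genes the ages did not overlap. These were the 2 of the 6 genes called in that step, where 3.22% of all genes rose. The log2 fold change of AQP5 in that step was 0.48 ± 0.41 (adjusted p = 0.521), and whether the genes differ in that step was not tested. In the same step the median of the 18 epithelial markers was 0.67 against -0.11 for all genes. Of 15 endothelial markers 13 were lower, where 5.7% of all genes fell. A fit with the epithelial mean as a covariate gave 1.88 for AQP4 (adjusted p = 0.088) and 0.95 for AQP3 (adjusted p = 0.129). Without the 4 libraries holding other tissue the values were 1.63 for AQP4 (adjusted p = 0.149) and 0.98 for AQP3 (adjusted p = 0.114). Without CF day 100 replicate 1 neither passed (1.99, adjusted p = 0.0534, and 1.35, adjusted p = 0.0592), nor did AQP3 without WT day 100 replicate 2 (1.23, adjusted p = 0.0605).

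Before that step, from day 65 to day 80, AQP4 had a log2 fold change of -1.14 ± 0.37 (adjusted p = 0.15), with no overlap, and AQP3 had a log2 fold change of -0.82 ± 0.26 (adjusted p = 0.149). Neither passed the test, and by edgeR none of the 6 genes and 0% of all genes did. At an unadjusted p under 0.05 edgeR had 2 of the 6 genes, AQP3 and AQP4, and 4748 of all genes. DESeq2 called both and 1789 of all genes, and limma-voom called none of the 6 and 11 of all.

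Over the whole interval from day 65 to birth the same 3 genes were called among the 1763 that rose, 8.77% of all genes. AQP3 rose by 1.73 ± 0.26 on the log2 scale (adjusted p = 0.000738) and AQP4 by 1.62 ± 0.37 (adjusted p = 0.00962). The value for AQP4 was 1.64 without the 4 libraries holding other tissue, and missed the threshold with fewer libraries. A test for any difference between the 5 ages called AQP5 (adjusted p = 3.33e-05), AQP3 (adjusted p = 0.000348) and AQP4 (adjusted p = 0.0026), where 17.9% of all genes were called. For AQP4 the adjusted p in that test was 0.0724 without the 4 libraries holding other tissue.

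AQP1, a water channel of small vessels, scattered widely. In CF libraries it had 16.6 and 16.6 CPM at day 65, then 14.8 and 14.9 CPM at day 80, 23.5 and 27.1 CPM at day 100 and 17.7 and 46 CPM at day 120, ending with 62.5 and 62.3 CPM at birth. In WT libraries it had 11.2 and 14 CPM at day 65, then 1.02 and 26 CPM at day 80, 8.13 and 3.03 CPM at day 100 and 42 and 17.8 CPM at day 120, ending with 117 and 9.63 CPM at birth. The CF pairs were close at 4 of the 5 ages, while the WT pairs at day 80 and at birth lay more than 10-fold apart, and the ages overlapped.

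AQP1 averaged 46.9 ± 34.9 CPM at days 120 and 147, against 14.4 ± 6.92 CPM at days 65 and 80 (SD, n = 8 each), with a log2 fold change of 1.62 ± 0.58 and an adjusted p of 0.0586, which missed the threshold. The 4 libraries with the least AQP1, namely WT day 80 replicate 1, both of WT day 100 and WT day 147 replicate 2, had length slopes from -0.2428 to -0.0993. They also had high summed epithelial markers, from 5143 to 7035 CPM. Slopes of -0.1743 in WT day 120 replicate 2 and -0.1445 in CF day 120 replicate 1 went with AQP1 of at least 17.7 CPM. Day 65 libraries had slopes from 0.0972 to 0.2449, so slope and age were partly confounded. With the length slope as a covariate the log2 fold change was 2.28 (adjusted p = 0.00105). It also passed the test by DESeq2 (1.64, adjusted p = 0.00881), and without WT day 80 replicate 1 (1.41, adjusted p = 0.04), WT day 80 replicate 2 (2.55, adjusted p = 0.00363) or WT day 147 replicate 2 (1.87, adjusted p = 0.0214). Of 15 endothelial markers, 5 were lower in late libraries and none higher, where 12.7% of all genes fell. Their summed level was 356 to 1119 CPM at days 120 and 147 against 814 to 3012 CPM at days 65 and 80. The highest value came from the library with thyroid markers, and no marker was at 0 in every library of either period. The lowest sums were 203 and 155 CPM in WT day 100 and 356 CPM in WT day 147 replicate 2, libraries also low in AQP1. WT day 80 replicate 1, with the least AQP1, had 926 CPM. The CF libraries of birth had sums of 422 and 1119 CPM, with AQP1 at 62.5 and 62.3 CPM. The part of these markers in AQP1 was not tested.

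ATP1B1, a beta subunit of the pump in many epithelia, had its highest median at birth. It had 147 and 92.6 CPM at day 65, then 84.7 and 76.9 CPM at day 80, 91.3 and 93.7 CPM at day 100 and 111 and 134 CPM at day 120, ending with 249 and 231 CPM at birth in CF libraries. In WT libraries it had 137 and 93.5 CPM at day 65, then 71.8 and 583 CPM at day 80, 120 and 164 CPM at day 100 and 149 and 83.4 CPM at day 120, ending with 255 and 184 CPM at birth. Apart from WT day 80 replicate 2, the library with thyroid markers, every library of birth lay above every library of the other ages.

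With all libraries, ATP1B1 averaged 175 ± 65.4 CPM at days 120 and 147, against 161 ± 173 CPM at days 65 and 80 (SD, n = 8 each), with a log2 fold change of 0.26 ± 0.32 (adjusted p = 0.62). That value depends on the library with thyroid markers: without WT day 80 replicate 2 the log2 fold change was 0.81 (adjusted p = 0.0062). From day 65 to birth ATP1B1 had a log2 fold change of 0.96 ± 0.45 (adjusted p = 0.16), with the 4 libraries of birth above the 4 of day 65. It passed when either WT day 80 library, which takes no part in that difference but adds to the shared spread, was left out: 0.96 without replicate 2 (adjusted p = 0.0114) and 1.00 without replicate 1 (adjusted p = 0.00849).

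ATP1B3, the other beta subunit, which is made in many tissues, showed little change. Its level lay between 32.1 and 61.1 CPM in all 20 libraries, and each age overlapped its neighbour in the order of medians, which ran between 39.6 CPM at day 100 and 55.1 CPM at day 80. Those 2 ages lay apart, with a log2 fold change of -0.46 ± 0.20 at day 100 against day 80 (adjusted p = 0.162). It averaged 47.1 ± 8.92 CPM at days 120 and 147, against 48.1 ± 9.36 CPM at days 65 and 80 (SD, n = 8 each). The log2 fold change was -0.01 ± 0.14 (adjusted p = 0.984), and from day 65 to birth it was 0.18 ± 0.20 (adjusted p = 0.566).

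**Figure D2:**
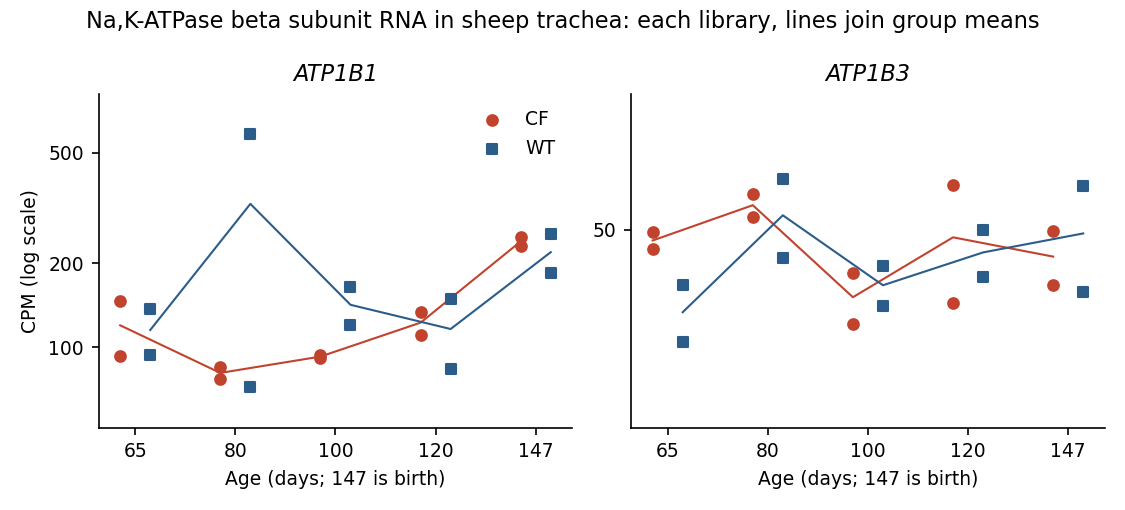
Level of the beta subunit genes ATP1B1 and ATP1B3 (CPM, log axis, 1 panel a gene with its own range) against age, with CF libraries as red circles left of WT libraries as blue squares, and lines through the means of the 2 libraries of a group. WT day 80 replicate 2 stands alone at 583 CPM of ATP1B1, and not in ATP1B3, which stays between 32.1 and 61.1 CPM.

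Per kilobase of exon, which allows genes to be compared but does not remove the length slopes of the libraries, the order within the group changed with age. At day 65 the median levels were 45 CPM per kilobase for ATP1B1, 41.4 for AQP3, 40.1 for AQP4, 28.1 for ATP1B3, 19 for AQP1 and 1.07 for AQP5. ATP1B1, AQP3 and AQP4 overlapped there, and AQP5 lay below the other 5 genes. At birth AQP3 led with 142 CPM per kilobase, followed by AQP4 at 125, ATP1B1 at 93.6, AQP1 at 77.6, AQP5 at 63.5 and ATP1B3 at 29.3. AQP3, AQP4 and ATP1B1 overlapped their neighbours in that order, AQP1 ranged between 12 and 146 and overlapped all others, and ATP1B3 lay below all AQP5 values.

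Of the summed aquaporin RNA per kilobase, AQP5 made up 1.28 ± 0.986% at day 65, 3.09 ± 1.38% at day 80, 1.72 ± 0.511% at day 100, then 9.09 ± 6.25% at day 120 and finally 18.8 ± 13.5% at birth (SD, n = 4 each). The AQP5 share at birth was 38.9% in WT replicate 2, the library with the lowest length slope (-0.2428). It was 13.3% in WT replicate 1 and 9.85% and 13.1% in the CF libraries. AQP4 had its largest share at day 100, with 46.1 ± 6.61%, and AQP3 held between 30.8 ± 7.63% at day 120 and 39.3 ± 5.65% at day 65. Of the 4 genes named as beta subunits (ATP1B1 to ATP1B4), ATP1B1 made up 60.2 ± 5.68% at day 65 and 73.6 ± 6.4% at birth. ATP1B3 made up 36.4 ± 5.64% at day 65 and 25.6 ± 6.78% at birth (SD, n = 4 each). At day 80 the beta shares of single libraries went apart: ATP1B1 held 88.2% in WT replicate 2, against 20% in CF replicate 1, the library with skeletal muscle markers, where ATP1B4 held 56.5%. ATP1B3 held more than ATP1B1 in 3 of the 4 libraries of that age: 22.7% and 52.7% in CF and 58.4% in WT replicate 1.

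Ratios taken within a library do not depend on how libraries are scaled. The log2 ratio of AQP5 to AQP3 averaged -1.79 ± 0.91 at days 120 and 147, against -4.69 ± 1.14 at days 65 and 80 (SD, n = 8 each), a difference of 2.89 (exact two-sided permutation test, p = 0.000155, the smallest that 8 against 8 libraries can give; adjusted p = 0.0014 over 18 ratio tests). The ratio of AQP5 to AQP4 differed by 2.68 (adjusted p = 0.0112). Against the mean of the 18 epithelial markers, AQP5 gained 4.05 (adjusted p = 0.0014), AQP4 1.37 (adjusted p = 0.0112) and AQP3 1.16 (adjusted p = 0.0028) in the same exact permutation tests.

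The ratio of AQP1 to the epithelial markers differed by 1.17 (adjusted p = 0.334) and that of ATP1B1 by -0.07 (adjusted p = 0.979), neither past the threshold in the exact permutation test. ATP1B3 lost 0.52 against the epithelial markers (log2 difference -0.52, adjusted p = 0.0462), a call that was lost in 11 of the 20 fits that leave out 1 library, and without the 4 libraries holding other tissue (-0.26, adjusted p = 0.234). The ratio of ATP1B1 to ATP1B3 averaged 1.81 ± 0.72 at days 120 and 147, against 1.36 ± 1.10 at days 65 and 80 (SD, n = 8 each; exact permutation test, adjusted p = 0.529).

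**Figure D3:**
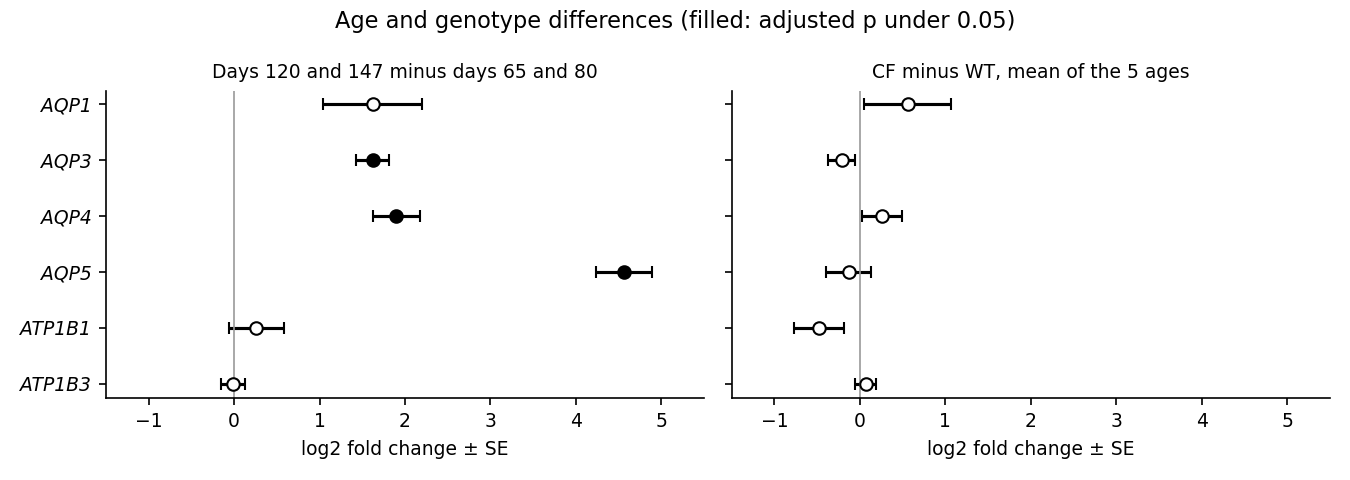
Log2 fold change with its SE for the 6 genes: days 120 and 147 over days 65 and 80 on the left, CF over WT on the right, filled where the adjusted p is under 0.05. AQP3, AQP4 and AQP5 are filled on the left, at 1.62, 1.90 and 4.56, and all points on the right are open and lie between -0.48 and 0.56.

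CF and WT tracheas were then compared, with the 5 ages weighted equally. None of the 6 genes was called by edgeR, where 0.766% of all genes were, and none had an unadjusted p under 0.05; DESeq2 and limma-voom called none either. CF minus WT was 0.56 ± 0.51 on the log2 scale for AQP1, -0.21 ± 0.16 for AQP3, 0.26 ± 0.23 for AQP4, -0.13 ± 0.26 for AQP5, -0.48 ± 0.29 for ATP1B1 and 0.07 ± 0.12 for ATP1B3, with adjusted p-values from 0.583 to 0.909. Single libraries moved these values. That of AQP1 was 1.30 without WT day 80 replicate 2 and 0.36 without WT day 80 replicate 1. That of ATP1B1 was -0.04 without WT day 80 replicate 2 and -0.65 (adjusted p = 0.0512) without WT day 80 replicate 1. The ranges over the 20 fits that leave out 1 library were -0.37 to -0.13 for AQP3, 0.07 to 0.36 for AQP4 and -0.32 to -0.02 for AQP5, with no call in any of them. For AQP5 the lowest, median and highest values were 1.57, 4.36 and 71.3 CPM in CF libraries, against 0.634, 4.61 and 208 CPM in WT libraries. For ATP1B3 they were 34.5, 48 and 59.6 CPM in CF libraries, against 32.1, 42.4 and 61.1 CPM in WT libraries. In the exact permutation tests none of the 9 ratios was called between CF and WT. These tests exchanged libraries across the 5 ages, so age differences stayed in their spread. For ratios that change with age, they could therefore miss a genotype difference.

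At single ages, with 2 libraries against 2, none of the 6 genes was called by edgeR or limma-voom, and the genes with an unadjusted p under 0.05 by edgeR were AQP5 at day 65, ATP1B1 at day 80 and AQP3 at day 100. By DESeq2 ATP1B1 at day 80 was the only call. Of all genes, 0.00995% were called at day 65, 0% at day 80, 1.46% at day 100, then 0% at day 120 and finally 0.0945% at birth. At days 80 and 120 edgeR had 1924 and 279 genes at an unadjusted p under 0.05, DESeq2 called 693 and 17, and limma-voom called 0. The pair with the lowest adjusted p by edgeR was ATP1B1 at day 80, with a log2 fold change of -2.02 ± 0.66 (adjusted p = 0.313), which was 0.17 without WT day 80 replicate 2 and -2.82 without replicate 1 (adjusted p = 0.00257). AQP3 at day 100 averaged 77.6 ± 3.43 CPM in CF libraries, against 137 ± 32.4 CPM in WT libraries (SD, n = 2 each), with no overlap and a log2 fold change of -0.82 ± 0.36 (adjusted p = 0.383). The largest log2 fold change at a single age was that of AQP1 at day 100, 2.18 ± 1.18 (edgeR, adjusted p = 0.474). AQP1 averaged 25.3 CPM in CF libraries there, against 5.58 CPM in WT libraries, also with no overlap. The 2 WT libraries of day 100 share an identifier and stood apart in their markers. Summed epithelial markers were 3865 and 3641 CPM in CF libraries of day 100, against 7035 and 6892 CPM in WT ones. Fibroblast markers were 38827 and 37146 CPM in CF libraries, against 6880 and 4816 CPM in WT libraries, with 7 of the 12 genes called higher in CF. Endothelial markers were 531 and 838 CPM in CF libraries, against 203 and 155 CPM in WT libraries. No epithelial or endothelial marker was called, with medians of -0.70 over 18 genes and 1.93 over 15 genes on the log2 scale, against 0.12 over all genes, and none of the 3 lists had a gene at 0 there. With the epithelial mean as a covariate the log2 fold change of AQP3 was -0.49 (adjusted p = 0.761). The part of these markers in the other values of day 100 was not tested.

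CF and WT libraries did not overlap for AQP5 at days 65, 120 and 147, for AQP4 and AQP1 at days 65 and 100, for AQP3 and ATP1B1 at day 100 and for ATP1B3 at day 65. These are 10 of the 30 pairs of gene and age, against 37.6% of such pairs over all genes tested. Day 65 had 4 of the 6 genes (47.5% of all genes), day 80 had 0 (22.3%), day 100 had 4 (70.6%), and day 120 and birth had 1 each (16.5% and 31.3%). The groups did not overlap in opposite directions at different ages in 2 of the 6 genes, AQP4 and AQP5, and in 41.3% of all genes tested. AQP5 was higher in both CF libraries at day 65 and lower in both at birth. At day 65 it averaged 3.12 ± 1.67 CPM in CF libraries, against 0.838 ± 0.289 CPM in WT libraries (SD, n = 2 each), with a log2 fold change of 1.90 ± 0.61 (edgeR, unadjusted p = 0.00833, adjusted p = 1). At birth it averaged 66.5 ± 6.75 CPM in CF libraries, against 157 ± 72.9 CPM in WT libraries, with a log2 fold change of -1.23 ± 0.58 (edgeR, unadjusted p = 0.0528, adjusted p = 0.642). Neither passed the test.

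The change of AQP5 from day 65 to birth was 4.41 ± 0.66 on the log2 scale in CF (adjusted p = 0.00212) and 7.55 ± 0.77 in WT (adjusted p = 0.000417), both called. The difference of the changes, CF minus WT, was -3.14 ± 0.84, with an unadjusted p of 0.00259 and an adjusted p of 0.806 by edgeR, where 0.00498% of all genes were called. By DESeq2 the adjusted p was 0.0448, and limma-voom called none of the 6 genes. A test that CF minus WT is the same at all 5 ages gave AQP5 an adjusted p of 0.533 and called none of the 6 genes, with AQP5 at an unadjusted p under 0.05 by edgeR and none of the 6 at that level by limma-voom. In that test 0.0697% of all genes were called by edgeR. The scores of the secretory marker list, the mean log2 deviation of its genes, were 2.08 and 1.77 in CF libraries of birth, against 2.74 and 2.83 in the WT ones. On day 65 the scores were -1.38 and -1.53 in CF libraries, against -1.41 and -1.80 in WT libraries. Their part in the difference of AQP5 was not tested.

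AQP3 rose from day 65 to birth in both genotypes, by 1.54 ± 0.37 on the log2 scale in CF (adjusted p = 0.03) and by 1.93 ± 0.38 in WT (adjusted p = 0.0091). The call was lost in 6 of the fits that leave out 1 library in CF and in 2 in WT. AQP4 rose by 1.99 ± 0.53 in CF (adjusted p = 0.0485), a call that limma-voom did not make (adjusted p = 0.0534) and that was lost in 12 of the 20 fits that leave out 1 library. Its log2 fold change in WT was 1.26 ± 0.52 (adjusted p = 0.142). The difference of the changes was not called for AQP3 (-0.39 ± 0.51, adjusted p = 0.92) or AQP4 (0.73 ± 0.73, adjusted p = 0.914). Of all genes, 1.78% rose in CF and 3.7% in WT over that interval.

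**Figure D4:**
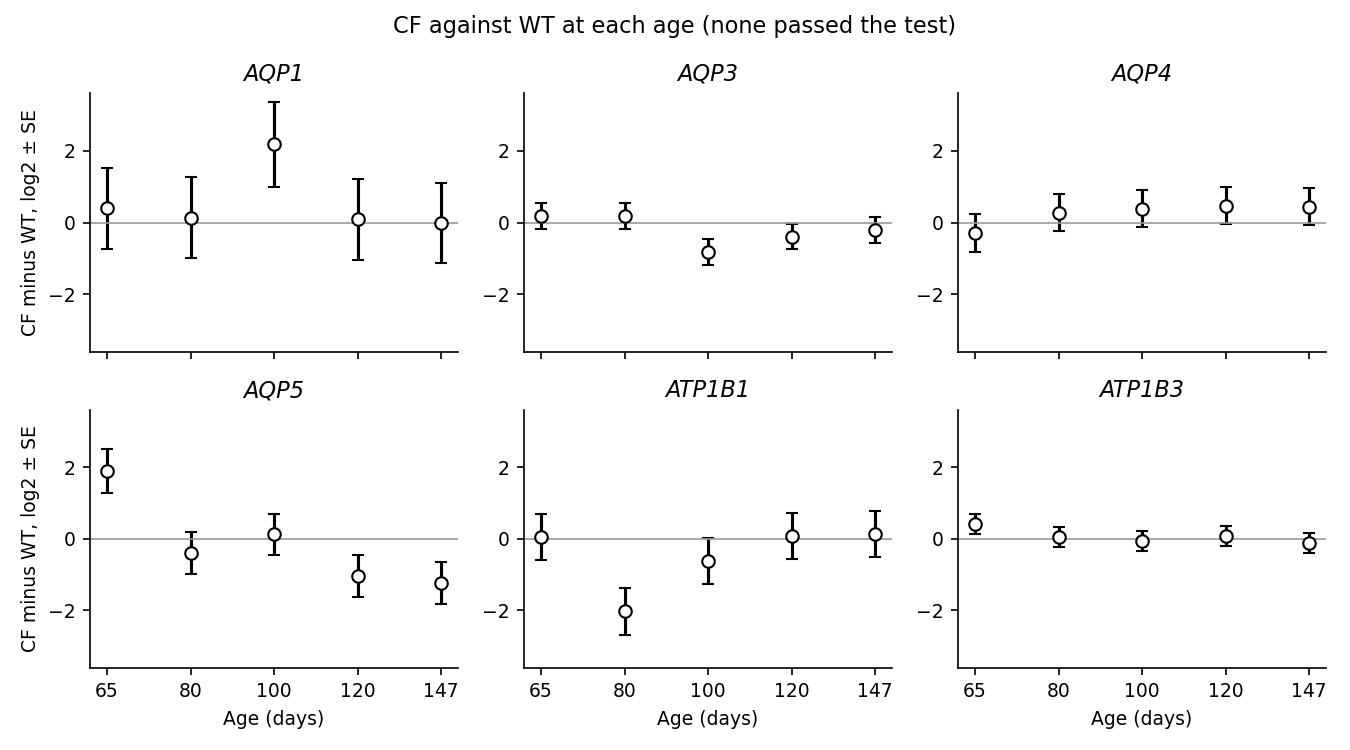
CF minus WT, as a log2 fold change with its SE from 2 against 2 libraries, at each of the 5 ages, 1 panel a gene on a common axis; all points are open since none passed the test. AQP1 at day 100 has the largest value, 2.18. AQP5 is highest at day 65 with 1.90 and lowest at birth with -1.23. ATP1B1 stands apart at day 80 with -2.02, and ATP1B3 stays between -0.13 and 0.41.

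Of the 10 other aquaporin genes listed, 8 had enough counts to be tested, and 4 of them rose between the early and late ages while none fell, with a median log2 fold change of 2.17. AQP2, a water channel best known from the kidney collecting duct and a neighbour of AQP5, averaged 3.47 CPM late, against 0.687 CPM early, and rose by 2.62 ± 0.56 on the log2 scale (adjusted p = 0.00494; 2.43 with an adjusted p of 0.0826 without the 4 libraries holding other tissue). AQP6, the neighbour on the other side, averaged 0.797 CPM late, against 0.048 CPM early, and rose by 4.90 ± 0.83 (adjusted p = 0.00136). It had no counts in some early libraries, so the size of that change rests on few counts. MIP, the water channel of the eye lens, averaged 1.14 CPM late, against 0.337 CPM early, and rose by 1.72 ± 0.31 (adjusted p = 0.00165). These 2 are named after their values were seen.

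AQP7, an aquaglyceroporin of fat cells, averaged 27.6 CPM late, against 0.985 CPM early, and rose by 5.94 ± 1.05 on the log2 scale (adjusted p = 0.00141). All 8 fat markers rose with it, with a median of 5.69 and a summed level of 124 to 4835 CPM at days 120 and 147 against 13.8 to 125 CPM at days 65 and 80, and no marker at 0 in all libraries of either period. Their part in the rise of AQP7 was not tested. AQP8 had a log2 fold change of -1.17 ± 0.61 (adjusted p = 0.191) and AQP11, a channel of the endoplasmic reticulum, 0.02 ± 0.24 (adjusted p = 0.988). AQP8 passed with the length slope as a covariate (-1.77, adjusted p = 0.0224). None of the 8 was called between CF and WT by edgeR.

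Other genes named as subunits or regulators of the sodium pump were read in the same way. Of the 13 listed, 10 were tested. Between the early and late ages 1 rose and 1 fell, with a median log2 fold change of -0.17, and the one that fell is not reported here. FXYD3, a small regulator of the pump, averaged 192 CPM late, against 86.7 CPM early, and rose by 1.20 ± 0.41 (adjusted p = 0.0482), a call lost in 15 of the 20 fits that leave out 1 library. It was 0.50 (adjusted p = 0.441) with the epithelial mean as a covariate and 0.70 (adjusted p = 0.219) without the 4 libraries holding other tissue, and missed the threshold with a replicate block and with shared identifiers summed.

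ATP1B2 and ATP1B4, both named as beta subunits, and 3 further FXYD regulators did not pass the edgeR test. The log2 fold changes were -0.53 ± 0.63 for ATP1B2 and -2.64 ± 0.93 for ATP1B4, a muscle protein that stood at 478 CPM in the muscle-holding CF day 80 replicate 1. ATP1B4 passed by DESeq2 (-2.62, adjusted p = 0.00247), without WT day 65 replicate 1 (-2.88, adjusted p = 0.0301) and without CF day 80 replicate 2 (-2.87, adjusted p = 0.00775). It was 0.73 (adjusted p = 0.305) without the 4 libraries holding other tissue. Among the FXYD regulators the log2 fold changes were 0.12 ± 0.34 for FXYD1, -0.32 ± 0.25 for FXYD5 and -0.02 ± 0.22 for FXYD6. With the length slope as a covariate FXYD5 (-0.68, adjusted p = 0.000345) and FXYD6 (-0.31, adjusted p = 0.0199) passed. Of the 2 tested H,K-ATPases, relatives of the pump that move protons, ATP4A had 0.90 ± 0.33 (adjusted p = 0.0695) and ATP12A 0.53 ± 0.42 (adjusted p = 0.416). ATP4A passed by DESeq2 (0.92, adjusted p = 0.0216), by limma-voom (1.01, adjusted p = 0.0411) and in 3 of the 20 fits that leave out 1 library, with 1.30 (adjusted p = 0.00672) without WT day 80 replicate 1.

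Genes that set the osmotic gradients were read beside them. Of 12 genes of chloride and bicarbonate secretion, 4 rose and 1 fell between the early and late ages, with a median log2 fold change of 0.91. The chloride channel gene ANO1 rose by 0.90 ± 0.14 (adjusted p = 0.000545), CFTR by 0.92 ± 0.24 (adjusted p = 0.0137), and the potassium channel genes KCNN4 and KCNQ1 by 2.72 ± 0.49 (adjusted p = 0.00163) and 1.68 ± 0.41 (adjusted p = 0.00967). The one that fell was SLC12A2, the cotransporter that loads chloride into the cell, which fell by 0.81 (SE 0.24, adjusted p = 0.0291), a call lost in 11 of the 20 fits that leave out 1 library. It is named after its values were seen. Without the 4 libraries holding other tissue CFTR had 0.62 (adjusted p = 0.197) and SLC12A2 -0.69 (adjusted p = 0.174). With the epithelial mean as a covariate CFTR had 0.79 (adjusted p = 0.0756) and SLC12A2 -0.51 (adjusted p = 0.204), and SLC12A2 also missed the threshold with shared identifiers summed (-0.78, adjusted p = 0.0807).

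Of 12 genes of sodium absorption through ENaC, 3 rose and none fell, with a median of 0.45. SCNN1A, the alpha subunit of ENaC, rose by 1.62 ± 0.46 (adjusted p = 0.0224), and the proteases TMPRSS2 and PRSS8 by 1.11 ± 0.29 (adjusted p = 0.0153) and 0.57 ± 0.18 (adjusted p = 0.0376), while the protease ST14 had 0.44 ± 0.21 (adjusted p = 0.156). The call was lost in 11 of the 20 fits that leave out 1 library for PRSS8 and in 6 for SCNN1A. With the epithelial mean as a covariate all 3 missed the threshold: SCNN1A at 1.66 (adjusted p = 0.071), TMPRSS2 at 0.62 (adjusted p = 0.0637) and PRSS8 at 0.18 (adjusted p = 0.3). Without the 4 libraries holding other tissue TMPRSS2 had 0.65 (adjusted p = 0.0595) and PRSS8 0.33 (adjusted p = 0.215). PRSS8 missed it under 5 of the 10 alternatives in all. ST14 passed without CF day 80 replicate 2 (0.76, adjusted p = 0.00129). PRSS8 and ST14 are also on the epithelial marker list.

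Of both lists, 1 gene was called between CF and WT: SCNN1B, the beta subunit of ENaC, named after its values were seen. Its lowest, median and highest values were 2.82, 4.37 and 8.71 CPM in CF libraries, against 4.92, 10.7 and 237 CPM in WT libraries. The high WT values were 237 CPM in day 80 replicate 2, the library with thyroid markers, and 53.4 and 68.7 CPM at birth, while the other 7 WT libraries reached 11.7 CPM at most. The log2 fold change was -2.13 ± 0.43 (adjusted p = 0.044), and -1.25 (adjusted p = 0.00452) without WT day 80 replicate 2. It was -1.11 (adjusted p = 0.046) without the 4 libraries holding other tissue. The call was lost in 17 of the 20 fits that leave out 1 library and under 5 of the 10 alternatives, among them limma-voom (-1.80, adjusted p = 0.367) and shared identifiers summed (-2.15, adjusted p = 0.247).

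Of 7 genes of the osmotic response, the cation channel gene TRPV4 rose by 1.39 ± 0.24 (adjusted p = 0.00114) and AKR1B1, which makes the osmolyte sorbitol, fell by 1.18 (SE 0.29, adjusted p = 0.0099), while the osmolyte carriers SLC5A3 and SLC6A6 had 0.26 ± 0.21 and 0.46 ± 0.38 and did not pass. AKR1B1 missed the threshold with the epithelial mean as a covariate (adjusted p = 0.114) and without the 4 libraries holding other tissue (-0.88, adjusted p = 0.11). SLC6A6 passed without WT day 80 replicate 2 (1.16, adjusted p = 0.00201) and without the 4 libraries (1.18, adjusted p = 0.0212). With the length slope as a covariate both carriers passed, SLC5A3 at 0.47 (adjusted p = 0.0277) and SLC6A6 at 0.91 (adjusted p = 0.0454). Among genes of the dystrophin complex, which anchors AQP4 to the membrane in brain and muscle of rodents, DMD fell by 1.21 (SE 0.22, adjusted p = 0.00189), a call made under all 10 alternatives (-1.28 to -0.82) and in all 20 fits that leave out 1 library. DTNA and DAG1 had log2 fold changes of -0.82 ± 0.34 (adjusted p = 0.106) and -0.34 ± 0.23 (adjusted p = 0.321), and DTNA passed without CF day 80 replicate 2 (-0.98, adjusted p = 0.0277). Skeletal muscle markers fell in the same comparison in 10 of 14 genes, where 12.7% of all genes fell. Their high levels were in the 2 early libraries named above. DMD was -1.01 (adjusted p = 0.0273) without the 4 libraries holding other tissue, those 2 among them.

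**Figure D5:**
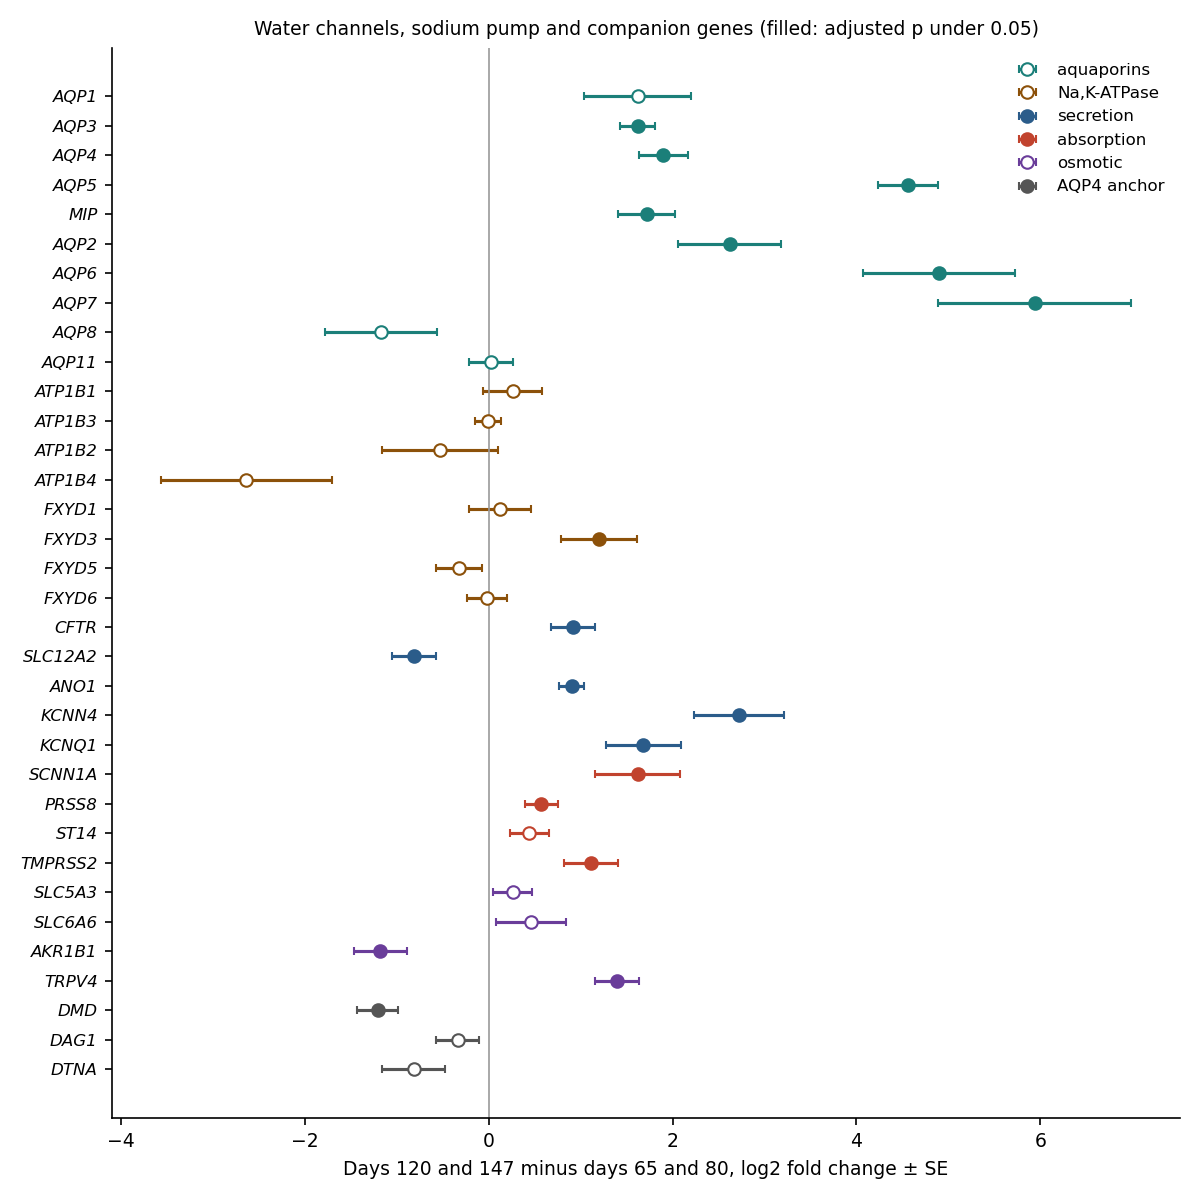
Log2 fold change with its SE, days 120 and 147 over days 65 and 80, for the 4 aquaporins and 2 beta subunits and for companion genes of 6 lists in 6 colours, filled where the adjusted p is under 0.05. AQP7, AQP6 and AQP5 reach furthest to the right, at 5.94, 4.90 and 4.56, and ATP1B4 furthest to the left, at -2.64.

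The genes whose profile over the 20 libraries was most like each of the 6 were found by the root mean square difference of log2 CPM after each gene's mean was subtracted, among 12501 genes; the libraries share depth, scaling and tissue makeup, and the likeness is a description. For ATP1B1 near ones were GGT1 at 0.36 and LRRC8D at 0.37, where ATP1B1 itself varied by 0.73 about its mean. For AQP4 they were ACPP at 0.27, RASSF6 at 0.30 and HNF4G at 0.31, with AQP4 varying by 1.06. For AQP3 they were NIPAL2 at 0.36, ACSS3 at 0.37 and CROT at 0.38, with AQP3 varying by 0.92.

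The nearest to AQP5 were further off: HEPACAM2 at 0.99, CKMT1A at 1.01 and GPX2 at 1.12, while AQP5 varied by 2.33. The nearest to AQP1 were KALRN at 0.78, C1QTNF1 at 0.80 and CREB3L1 at 0.80, with AQP1 varying by 1.48. ATP1B3, which varied by 0.27 in all, was nearest to METTL22 at 0.13 and GINM1 at 0.14.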

How the data were processed

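The authors deposited whole-number counts per gene, made with STAR 2.6 and featureCounts 1.6.3 per the submitters' processing notes, with summed exon lengths; the labels state neither genome build nor strand setting. Among counts of 1 to 20, 70.7% to 85.3% were even, so many fragments may have been counted by both ends and counting error is larger than the counts show. The CF and WT tables were joined by gene (24478 genes, 20 libraries); the 2 columns a genotype named for term were taken as day 147. Of 8432 identifiers without a symbol, 573 were given one from RefSeq. Genes passing filterByExpr (20097) were scaled by TMM and fitted in edgeR 4.0.16 (R 4.3.3) with 1 coefficient for each of 10 groups; quasi-likelihood tests were adjusted by Benjamini-Hochberg at 0.05, and SE is the log2 fold change over the root of F. Log2 CPM used a prior count of 2. The fit was tested on simulated data. Alternatives were DESeq2 1.42.0, limma-voom 3.58.1, RLE or library-size scaling, no filter, a replicate block, covariates for gene-length slope or epithelial markers, summing pairs of a shared identifier, and leaving out libraries. Named genes were the 6, other aquaporin and pump genes of at least 1 CPM, up to 4 genes of each other list by adjusted p, and the 3 nearest profiles; some of these genes are not reported here. Members and lists were chosen with earlier results of these data known. Counting intervals are not given since libraries, not reads, set the error.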

Additional observations from a re-analysis of the deposited data

Results flagged for a closer look

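AQP5 drew attention because its CF and WT libraries did not overlap in opposite directions at different ages: CF minus WT was 1.90 on the log2 scale at day 65, with CF higher, against -1.04 at day 120 and -1.23 at birth, with CF lower. For AQP5 the difference between ages was tested: the change from day 65 to birth differed by -3.14 (edgeR, adjusted p = 0.806), and the test over all 5 ages gave an adjusted p of 0.533, so neither passed by edgeR, while DESeq2 gave the difference of changes an adjusted p of 0.0448 and limma-voom did not call it. At day 65 the counts behind AQP5 were 303 and 120 in CF libraries, against 50 and 52 in WT libraries.

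AQP4 drew attention for the same reason, with CF minus WT of 0.39 at day 100, where both CF libraries were higher, and -0.29 at day 65, where both were lower. Its adjusted p in the test over all 5 ages was 0.993 by edgeR, and the difference between those 2 ages alone was not tested. Groups of 2 against 2 libraries did not overlap in opposite directions at 2 ages or more in 2 of the 6 genes, AQP4 and AQP5, against 41.3% of all genes tested.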

How the results depend on the processing

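The rises of AQP3, AQP4 and AQP5 between days 65 and 80 and days 120 and 147 kept their direction and their side of the threshold under all 10 alternatives (1.35 to 1.65, 1.70 to 1.97 and 4.11 to 4.59) and in all 20 fits that leave out 1 library. With the length slope as a covariate AQP1 passed (2.28 late over early, 3.29 birth over day 65), as did ATP1B1 over birth and day 65 (1.68) and AQP5 over birth and day 120 (2.08). ATP1B3 had -0.16 over birth and day 65, AQP11 -0.10 and FXYD1 -0.24 late over early. In that fit 5 of the 6 genes were called in the test for any difference between the 5 ages. Counts of all genes called for age are from another comparison, late over early. Those called for genotype are from CF minus WT over all ages. In that fit 8385 genes were called for age and 745 for genotype. With DESeq2 AQP1 passed (1.64 and 2.14), as did AQP3 and AQP4 at day 80 against day 65 (-0.83 and -1.16), AQP5 and AQP3 at birth against day 120 (2.07 and 1.07), the AQP5 difference of changes (-3.14) and ATP1B1 at day 80 (-2.03). ATP1B3 was then 0.01 late over early, and 827 genes were called for genotype against 154. With limma-voom AQP4 in CF from day 65 to birth missed the threshold (1.96) and AQP5 at birth against day 120 passed (2.10). With RLE size factors ATP1B3 was 0.01 and AQP4 in CF missed it (2.02). With library size alone AQP4 and AQP3 in CF missed it (1.79 and 1.32), ATP1B3 over birth and day 65 was -0.13 and AQP11 -0.10.

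With the epithelial mean as a covariate AQP1 passed (2.25), AQP5 at birth against day 120 passed (1.94), AQP4 in CF (1.90) and AQP3 and AQP4 at day 100 against day 80 (0.95 and 1.88) missed the threshold, and signs turned for AQP5 in CF against WT (0.05), AQP11 (-0.25), ATP1B2 (0.34), ATP1B4 (0.51) and DAG1 (0.16), with 3171 genes called for age against 4865. With the pairs of a shared identifier summed, AQP3 and AQP4 in CF (1.55 and 1.98), AQP3 and AQP4 at day 100 (1.41 and 2.11) and AQP5 at day 120 (2.68) missed it with fewer libraries, ATP1B3 was 0.02 and FXYD6 0.01, and 2 genes were called for genotype. Without the 4 libraries holding other tissue, which left 1 library in each group of days 65 and 80, AQP1 was 2.6. AQP4 from day 65 to birth (1.64), AQP3 and AQP4 in CF (1.31 and 2.00), AQP3 and AQP4 at day 100 (0.98 and 1.63), AQP5 at day 120 (2.66), the AQP5 to AQP4 ratio (2.63) and the ATP1B3 to epithelium ratio (-0.26) missed it. Signs turned for AQP5 (0.05) and ATP1B3 (-0.01) in CF against WT, ATP1B1 at day 80 (0.10), the ATP1B1 to epithelium ratio (0.52), AQP11 (-0.07), ATP1B2 (0.34), ATP1B4 (0.73) and DAG1 (0.05), with 2781 genes called for age and 49 for genotype.

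Leaving out 1 library at a time gave, late over early, 0.94 to 2.55 for AQP1, 0.08 to 0.81 for ATP1B1, -0.08 to 0.08 for ATP1B3, -0.10 to 0.14 for AQP11, -1.58 to 0.07 for ATP1B2, -0.14 to 0.49 for FXYD1, -0.15 to 0.23 for FXYD6 and -0.01 to 0.76 for ATP12A. From day 65 to birth it gave 0.76 to 2.59 for AQP1, 0.81 to 1.15 for ATP1B1, 1.31 to 1.81 for AQP3 in CF, 1.6 to 2.31 for AQP4 in CF and 1.75 to 2.12 for AQP3 in WT. The steps gave 1.12 to 1.73 for AQP3 and 1.85 to 2.42 for AQP4 from day 80 to day 100, -1.18 to -0.57 for AQP3 from day 65 to day 80, and 2.21 to 2.93 for AQP5 from day 100 to day 120. CF minus WT gave -2.82 to 0.17 for ATP1B1 at day 80, -0.03 to 0.13 for ATP1B3 over all ages, and 51 to 319 genes called (51 without CF day 147 replicate 2, 319 without WT day 80 replicate 1). The ratios to epithelium gave -0.59 to -0.30 for ATP1B3 and -0.24 to 0.27 for ATP1B1, 0 to 1 ratio was called between genotypes, 3 to 5 of the 6 genes differed between ages and 0 to 1 between genotypes by age (ATP1B1 without WT day 80 replicate 1). ATP1B1 late over early passed without WT day 80 replicate 2. The causes of these changes were not tested.

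The replicate numbers did not pair the libraries: over 45 pairs of groups the correlation of same-numbered deviations ran from -0.588 to 0.733, median 0.023, and 12 were over 0.1. With the replicate block AQP4 in CF (1.98, adjusted p = 0.0699) and AQP5 from day 100 to day 120 (2.67, adjusted p = 0.0783) missed the threshold.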
